A study of Mus musculus with 2 samples.

Results

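Cycling CD8 T cells are the killer T cells that were dividing, or preparing to divide, inside the tumour when it was removed. Here they are 293 cell barcodes of 10713 kept from 8 mouse melanoma tumours, and 4.81% of the 6096 CD8 T cells among those. They were selected on measured values, the UMIs of Mki67 and Top2a. A barcode was kept when it held at least 500 genes, at most 10% of its UMIs (unique molecular identifiers, each counting 1 captured RNA molecule) on mitochondrial genes, and 1 hashtag with at least 80% of its hashtag UMIs. A kept barcode counted as a CD8 T cell when it held at least 1 UMI of Cd8a or Cd8b1 and none of Cd4 or Foxp3, and as cycling when it also held at least 1 UMI of Mki67 and at least 1 of Top2a. The 707 CD8 cells with UMIs of only 1 of Mki67 and Top2a were left out of both classes, and the 5096 with neither are called non-cycling below.

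The study set tumours of C57BL/6J mice that received the bacterium Lactobacillus reuteri (called LR, mice 1 to 4) against tumours of mice that received PBS, the carrier fluid (mice 6 to 9). Cells bearing CD90.2, a surface protein of T cells, were enriched by magnetic selection, and 8000 live CD8+ cells per animal were sorted by flow cytometry. Cells of all 8 mice were marked with hashtag antibodies, pooled by condition and loaded on a single lane, so each condition has 4 mice and there is 1 library. Age, sex, tumour line, dose and route are not stated, and neither condition carries an antibody treatment in the labels.

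Cell division runs from a growth phase through DNA copying (S phase) and a second gap (G2) to mitosis (M). Genes for DNA copying are held under E2F factors, while genes for mitosis are controlled through short promoter motifs that bind the DREAM and NF-Y complexes. In tumours, CD8 T cells divide after their receptor meets antigen. The inhibitory receptor PD-1, encoded by Pdcd1, appears after such stimulation and remains on cells that are stimulated for long, which is why Pdcd1 was used to divide the cycling cells.

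Promoters of the genes that chose the cells (Mki67 and Top2a), of the other markers Pclaf and Rrm2, and of Cdk1, picked as a promoter with all 3 motifs described here, are shown first, since such motifs are known in cell cycle genes. Each line gives bases just upstream of the start of the gene, taken from RefSeq on GRCm38.p6 and written 5′ to 3′ on the gene's own strand. Capitals mark 3 motifs on either strand: the CHR element (TTTGAA or TTCGAA, read on the opposite strand as TTCAAA or TTCGAA), the NF-Y box (CCAAT, on the opposite strand ATTGG) and the E2F site (TTTGGCGC, TTTCCCGC, TTTCGCGC or TTTGCCGC). Mki67 encodes the proliferation antigen Ki-67, Top2a the DNA untangling enzyme topoisomerase II alpha, Pclaf a clamp-binding protein of DNA replication, Rrm2 a subunit of the enzyme that makes DNA building blocks, and Cdk1 the kinase that drives entry into mitosis.
Mki67, chr7:135716380-135716499, minus strand: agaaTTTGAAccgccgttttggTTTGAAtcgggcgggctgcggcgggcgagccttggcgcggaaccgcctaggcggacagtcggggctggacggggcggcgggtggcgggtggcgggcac
Top2a, chr11:99024190-99024309, minus strand: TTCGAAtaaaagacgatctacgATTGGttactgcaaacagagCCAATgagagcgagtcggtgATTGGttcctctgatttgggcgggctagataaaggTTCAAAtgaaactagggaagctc
Pclaf, chr9:65890117-65890236, plus strand: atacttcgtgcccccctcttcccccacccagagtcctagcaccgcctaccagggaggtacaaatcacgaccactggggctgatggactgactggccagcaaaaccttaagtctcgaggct
Rrm2, chr12:24708121-24708240, plus strand: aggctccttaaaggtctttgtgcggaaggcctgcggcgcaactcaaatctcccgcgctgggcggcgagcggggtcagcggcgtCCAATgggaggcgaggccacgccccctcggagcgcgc
Cdk1, chr10:69352939-69353058, minus strand: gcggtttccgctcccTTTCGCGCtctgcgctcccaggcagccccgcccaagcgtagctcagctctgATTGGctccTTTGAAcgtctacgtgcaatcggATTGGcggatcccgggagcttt

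The stretch shown for Pclaf holds none of the 3 motifs and that of Rrm2 holds 1 NF-Y box. These stretches end 86 (Pclaf) and 13 (Rrm2) bases before the RefSeq start, and that of Cdk1 26 bases before it. Within the 250 bases before that start, Pclaf has 2 NF-Y boxes and Mki67 has 3, none of them in the bases shown. Over the 250 bases before each RefSeq start, a CHR element was found in 30 of the 81 matched promoter windows of G2/M genes (37.0%), in 7 of the 42 of S phase genes (16.7%) and in 17.1% of all 32851 windows. An NF-Y box was found in 67.9% of the G2/M windows and 61.9% of the S phase windows, beside 33.8% of all windows. An E2F site was found in 10 of the 42 S phase windows (23.8%) and 5 of the 81 G2/M windows (6.17%), beside 1.86% of all. The tables matched 73 of the 89 G2/M genes and 36 of the 49 S phase genes, and a match of letters is a description only.

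The mice gave 42, 46, 32 and 54 cycling cells (LR 1 to 4) and 35, 16, 27 and 41 (PBS 6 to 9), with 286960 to 774828 UMIs per mouse. Cycling cells were deep, with a median of 12621 UMIs and 3507 genes per cell, beside 3604.5 UMIs and 1447 genes in non-cycling cells. The sum of 7 CD8 T cell genes lay between 4272 and 5736 CPM, which are UMIs scaled to the same total for every mouse, in the cycling cells of every mouse, a list that holds Cd8a and Cd8b1, by which the cells were chosen. The sum of 6 myeloid genes lay between 2.87 and 667 CPM, and its highest value came mainly from 1 Pdcd1-negative cell of LR 3 with 80 C1qa, 119 C1qb and 98 Lyz2 UMIs. Melanocyte genes stayed at or under 6.14 CPM per mouse, 6 B cell genes summed to 18.1 to 104 CPM with 3 of them at 0, 2 of 3 dendritic cell markers were at 0, and 6 of the 293 cells were marked as likely doublets by Scrublet. No barcode is shared with another library, since there is 1 library.

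Pclaf and Rrm2, the other 2 markers of the label, which the choice of cells did not use, were present in most cycling cells. Pclaf (chr9:65890237-65903266 on GRCm38), had at least 1 UMI in 82.3% of cycling and 4.36% of non-cycling cells. Rrm2 (chr12:24708241-24714146) had one in 71.7% and 2.55%. Among the 48 cells just inside the threshold, with 1 UMI each of Mki67 and Top2a, Pclaf was found in 39.6% and Rrm2 in 22.9%, while the 245 with more held them in 90.6% and 81.2%. Just outside it, the 354 cells with Mki67 only held Pclaf in 22.0% and Rrm2 in 13.8%, and the 353 with Top2a only held them in 10.5% and 7.08%. Cells with 1 UMI each were thus nearer to those just outside than the rest were, and shallower too, with a median of 8874.5 UMIs. The hashtag threshold cut across like cells: 27 cycling cells had a hashtag share of 80 to 85%, and 16 barcodes at 75 to 80% met every other criterion.

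Because Mki67 and Top2a chose the cells, all gene differences between cycling and non-cycling cells are descriptions and carry no test. UMIs were summed per mouse, and a sum cannot tell more cells with a transcript from more transcript per cell. Of 7200 genes, 505 (7.01%) were at least 1 log2 unit higher in cycling cells and higher in all 8 mice, and 463 (6.43%) were as much lower in all 8, with a median over all genes of -0.03. The S phase list met the higher criterion for 43 of 46 genes (median log2 ratio 2.40) and the G2/M list for 75 of 78 (4.01). Pclaf lay at 457 CPM in the lowest, 682 in the median and 915 in the highest mouse in cycling cells, and between 8.81 and 25.6 in non-cycling cells, a log2 ratio of 5.33. Cdk1 averaged 162 CPM in cycling and 3.78 in non-cycling cells, and Birc5, which encodes the mitotic protein survivin, averaged 364 and 12.4. The ranges of these genes in the 2 classes lay far apart.

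Among the 26 cyclins, cyclin-dependent kinases and their inhibitors, 17 were higher and 1 was lower. The 1 that was lower, Cdkn1b, encodes p27, an inhibitor linked to rest, and averaged 74.2 CPM in cycling and 183 CPM in non-cycling cells. Cdkn1a, which encodes the inhibitor p21, went the other way, at 63.0 and 21.6 CPM. Ccnd2, a cyclin of the first growth phase, averaged 103 CPM in cycling and 188 in non-cycling cells, a log2 ratio of -0.93.

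All 9 measured naive and central memory genes were lower in the cycling cells, with a median log2 ratio of -2.92. Klf2, a factor of resting T cells that drives exit from tissue, averaged 132 CPM in cycling and 1238 in non-cycling cells. Tcf7, which encodes TCF-1, a factor of naive and stem-like T cells, averaged 66.2 and 417 CPM. Il7r, the receptor for the survival cytokine IL-7, averaged 43.4 and 464 CPM. The cycling cells were also lower among Pdcd1-positive cells alone, where the log2 ratios of cycling over non-cycling cells were -1.94 for Klf2, -1.96 for Tcf7 and -2.62 for Il7r. Interferon response genes were lower for 6 of 10 (median -1.47), among them Isg15, at 15.1 and 61.6 CPM.

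Inhibitory receptors and cytotoxic genes did not meet either criterion, with 0 of 8 and 0 of 11 members. Their median log2 ratios were 0.44 and 0.21. Havcr2, which encodes the inhibitory receptor TIM-3, averaged 126 CPM in cycling and 72.3 in non-cycling cells, but its log2 ratio was -0.16 within Pdcd1-positive cells. For Lag3, another inhibitory receptor, the log2 ratio was 0.46 in all cells and -0.55 within Pdcd1-positive cells. Gzmb, which encodes the killing enzyme granzyme B, averaged 782 and 391 CPM, with a log2 ratio of 0.30 within Pdcd1-positive cells. Glycolysis genes were higher for 5 of 14 (median 0.74), among them Gapdh, at 7128 and 3272 CPM.

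**Figure D1:**
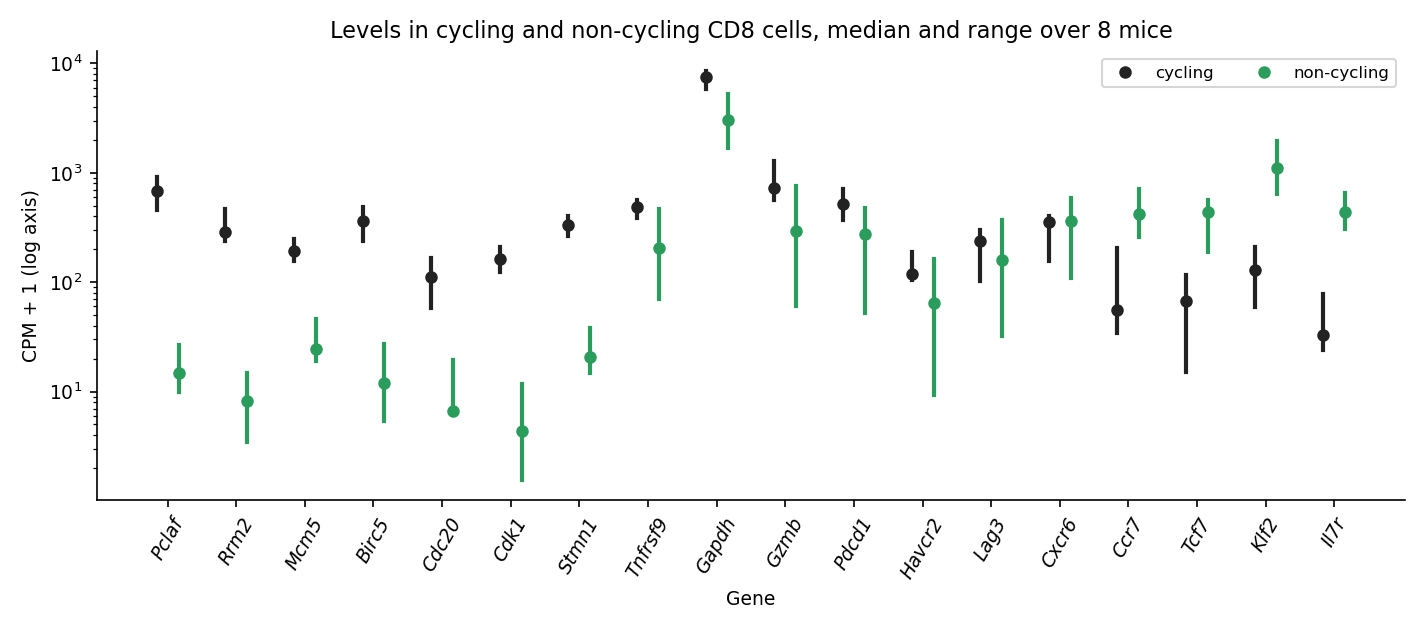
CPM plus 1 (log axis) of 18 genes in cycling (black) and non-cycling (green) CD8 cells, with the median and the range over 8 mice. Cell cycle genes such as Pclaf sit far higher in cycling cells, Klf2, Tcf7 and Il7r sit lower, and inhibitory receptor genes overlap.

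Cycling cells made up 4.04, 8.23, 12.3 and 11.3% of the CD8 cells of LR mice 1 to 4, and 9.67, 1.21, 3.80 and 3.01% of those of PBS mice 6 to 9. PBS 6 lay among the LR mice and LR 1 among the PBS mice, so the groups overlapped. The means were 8.96 ± 3.71% (SD, n = 4) and 4.42 ± 3.66% (SD, n = 4), a difference of 4.54 points with an exact two-sided permutation p of 0.143 and an adjusted p of 0.500 over 7 such tests on shares. With 4 mice against 4 the smallest p is 0.029. Without PBS 6 the difference was 6.29 points (exact permutation p = 0.0571). In cells of at least 2000 UMIs, thinned to 2000 and called cycling again, the difference was 2.55 points (exact permutation p = 0.0571). With a hashtag share of at least 95% the LR mean was 16.5% and the PBS mean 8.07%, a difference of 8.46 points (exact permutation p = 0.657). Only LR 2 (9), PBS 7 (6), PBS 8 (24) and PBS 9 (21) then had at least 5 cycling cells. The means still include the other mice, so they rest on very few cells there. These are shares of sorted cells and not cell numbers in a tumour. What was sorted is not certain: the labels name a CD8+ sort in one place and CD3+ T cells in another. Of the 10713 kept barcodes, 6096 met the CD8 criterion. Another 517, with Foxp3 UMIs and none of Cd8a or Cd8b1, were counted as regulatory T cells.

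Pdcd1 UMIs were found in 247 of the 293 cycling cells (84.3%, exact 95% interval 79.6 to 88.3%), in 52.9% of the cells with Mki67 or Top2a alone and in 23.3% of the non-cycling cells. These intervals cover counting error only. In myeloid barcodes, which should hold little Pdcd1, it was found in 0 of 10 (median 8153 UMIs), which allows a share of up to 30%. Depth differed between the classes, so cells of at least 2000 UMIs were thinned to 2000. These were 289 of the cycling and 4325 of the non-cycling cells. With the classes kept as called before thinning, the shares were 59.5% of cycling and 17.9% of non-cycling cells. By mouse the share in cycling cells was 76.2, 93.5, 78.1 and 96.3% (LR 1 to 4) and 91.4, 81.2, 66.7 and 78.0% (PBS 6 to 9), and in non-cycling cells it ran from 7.17% in PBS 7 to 54.6% in LR 4. In every mouse the cycling cells had the higher share, and the lowest of them, PBS 8, lay above the highest non-cycling value. In thinned cells each mouse kept that order, but the ranges overlapped, with 40.0% in the cycling cells of PBS 8 and 41.3% in the non-cycling cells of LR 4. LR and PBS means of the cycling cells were 86.02 ± 10.3% and 79.3 ± 10.2% (SD, n = 4). The difference of 6.67 points gave an exact two-sided permutation p of 0.429, and it had the opposite sign (-2.12 points) in thinned cells.

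**Figure D2:**
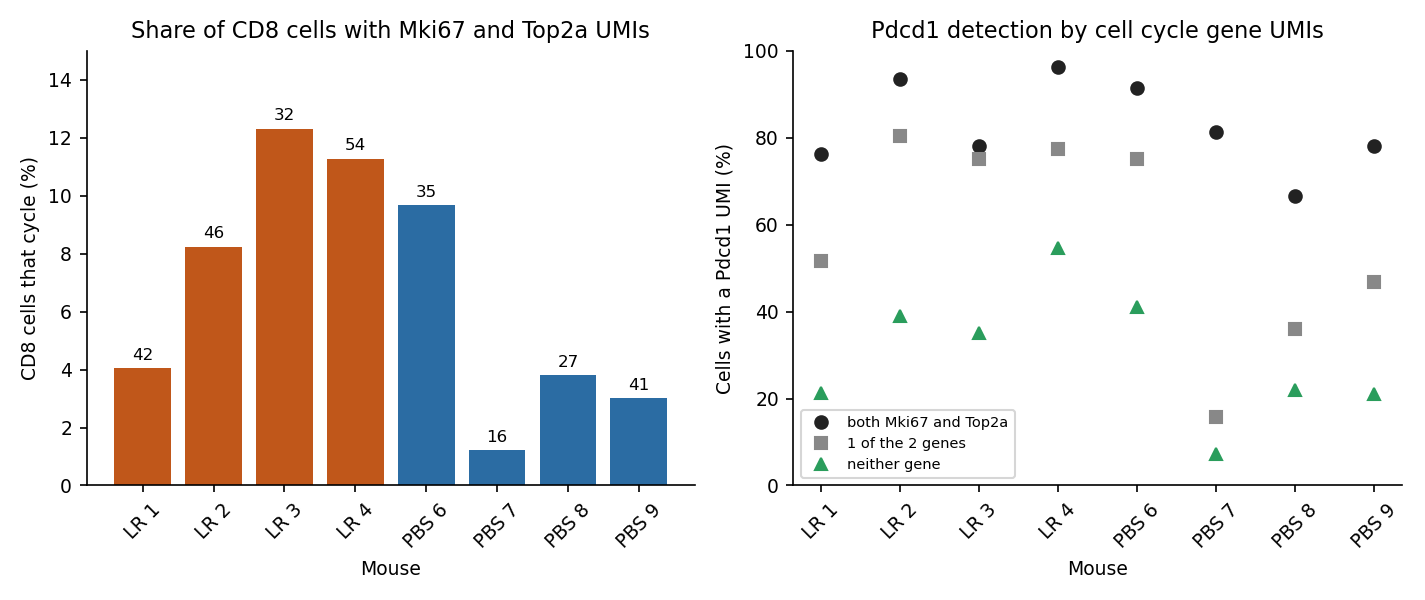
Left, cycling cells as a percentage of the CD8 cells of each mouse (orange LR, blue PBS), with the number of cycling cells above each bar. Right, percentage of cells with a Pdcd1 UMI in each mouse for cells with both, 1 or neither of Mki67 and Top2a, in which cells with both are highest.

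Pdcd1-positive and Pdcd1-negative cycling cells were then compared within the same mice. Only LR 1, LR 3, PBS 8 and PBS 9 had at least 5 cells on both sides, with 10, 7, 9 and 9 Pdcd1-negative cells, so the other 4 mice are not in this fit. A Pdcd1-negative cell is one with no Pdcd1 UMI: these cells had a median of 7871 UMIs against 13448 in the positive ones, and some may hold Pdcd1 RNA that was missed. The positive cells were higher in some inhibitory and costimulatory receptors, such as Lag3 and Tnfrsf9, in the chemokines Ccl3 and Ccl4 and in Gzmb, and the negative cells in Klf2, Tcf7, Il7r and other genes of resting T cells. By edgeR's quasi-likelihood test with mouse as a block, 117 of 2979 genes passed an adjusted p of 0.05 (3.93%), of which 47 were higher (1.58%) and 70 lower (2.35%) in Pdcd1-positive cells, and the median over all genes was -0.00. The p-values measure how the difference between the sides varied over the 4 mice, together with counting error in few cells. Mki67, Top2a and Cd8b1 are 3 of the 70, but the choice of cells used them and a shallow cell had to hold them, so they are described only.

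Receptors that costimulate T cells were among the clearest. Of 9 measured costimulators, 3 rose and none fell, with a median log2 ratio of 0.39. Tnfrsf9, which encodes 4-1BB, a receptor induced by antigen (chr4:150914562-150946102), lay at 468, 517, 662 and 435 CPM in the Pdcd1-positive cells of LR 1, LR 3, PBS 8 and PBS 9, and at 50.0, 30.3, 56.6 and 76.3 CPM in the negative ones. The sides did not overlap, and the log2 ratio was 3.28 ± 0.32 (SE, edgeR adjusted p = 2.4e-05). Tnfrsf4, which encodes the costimulator OX40, lay at 174, 233, 216 and 184 CPM in positive and 99.9, 10.1, 14.1 and 30.5 CPM in negative cells, again without overlap (log2 ratio 2.70 ± 0.48, edgeR adjusted p = 0.0031). Tnfrsf18, which encodes GITR, also rose (log2 ratio 1.39), but not past the threshold without LR 3 (edgeR adjusted p = 0.0798) or without PBS 8 (0.0924).

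Inhibitory receptors followed, with 3 of 6 measured genes higher, none lower and a median of 1.13, with Pdcd1 itself left out. Lag3 lay at 249, 308, 284 and 281 CPM in positive cells and 50.0, 30.3, 70.7 and 122 CPM in negative cells, without overlap (log2 ratio 2.05 ± 0.34, edgeR adjusted p = 0.0024). Tigit lay at 468, 399, 446 and 317 CPM in positive and 225, 101, 56.6 and 137 CPM in negative cells (log2 ratio 1.68 ± 0.31, edgeR adjusted p = 0.0038). Both held when any 1 mouse was left out. Havcr2 rose from 50.0, 10.1, 70.7 and 45.8 CPM in negative to 138, 142, 148 and 113 CPM in positive cells (log2 ratio 1.67 ± 0.43, edgeR adjusted p = 0.034), but it passed in none of the fits that left out 1 mouse, where the adjusted p reached 0.197 without LR 3. The exhaustion factor list had 3 of 6 genes higher (Tox, Eomes and Nr4a2; median 1.08). Tox, a factor of exhausted T cells, lay at 179, 217, 191 and 121 CPM in positive and 99.9, 70.8, 14.1 and 76.3 CPM in negative cells (log2 ratio 1.45 ± 0.39, edgeR adjusted p = 0.045), and it too was lost with any mouse left out (0.246 without PBS 8). Eomes was lost without PBS 8 (edgeR adjusted p = 0.304) and Nr4a2 without LR 3 (0.137).

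Of 5 measured cytokine and chemokine genes, 3 rose (median 2.68). Ccl4, which draws T cells and myeloid cells, lay at 1897, 1749.8, 626 and 499 CPM in positive cells and at 125, 70.8, 14.1 and 107 CPM in negative cells (log2 ratio 3.84 ± 0.34, edgeR adjusted p = 1.2e-05). Ccl3, a related chemokine (chr11:83647844-83649355), lay at 1917, 1120.1, 382 and 232 CPM in positive cells and 0, 91.0, 56.6 and 30.5 CPM in negative cells (log2 ratio 3.82 ± 0.42, edgeR adjusted p = 4e-05). Neither overlapped between the sides. Ifng, the gene of interferon gamma (chr10:118441046-118445892), lay at 1965, 201, 187 and 132 CPM in positive and 175, 30.3, 42.4 and 45.8 CPM in negative cells (log2 ratio 2.68 ± 0.35, edgeR adjusted p = 0.00026). The high value is 1 cell: a Pdcd1-positive cell of LR 1 held 726 Ifng, 640 Ccl3 and 502 Ccl4 UMIs of its 23471, which is 53.9% of all Ifng UMIs in the cycling cells. Without that cell the log2 ratio of Ifng was 1.41 and no longer passed (edgeR adjusted p = 0.080), while without the whole of LR 1 it was 2.14 and passed (0.0096). The log2 ratio of Ccl3 without that cell was 3.36. Xcl1, a chemokine for cross-presenting dendritic cells, did not pass (log2 ratio 2.18, edgeR adjusted p = 0.067).

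Of 9 cytotoxic genes 3 were higher and 1 was lower, with a median of 0.62. Gzmb lay at 974, 1463, 759.5 and 718 CPM in positive and 199.9, 546, 198 and 122 CPM in negative cells, without overlap (log2 ratio 1.87 ± 0.24, edgeR adjusted p = 0.00022). Prf1, which encodes the pore protein perforin, was higher in 3 of 4 mice, at 262, 423, 263 and 87.4 CPM against 50.0, 30.3, 0 and 137 (log2 ratio 2.20 ± 0.58, edgeR adjusted p = 0.040; 0.267 without LR 3). Gzma, which encodes granzyme A (chr13:113093825-113100981), went the other way, at 204, 48.2, 61.2 and 121 CPM in positive cells and 25.0, 2811, 255 and 824 in negative cells (log2 ratio -2.81 ± 0.69, edgeR adjusted p = 0.029). LR 1 had the opposite order, and without LR 3 the log2 ratio was -1.55 and did not pass (0.144). Gzmk, a granzyme of memory-like cells, did not pass (log2 ratio 0.89, edgeR adjusted p = 0.29).

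Nrgn, which encodes a calmodulin-binding protein, had one of the larger differences, at 262, 927, 565 and 418 CPM in positive and 149.9, 10.1, 28.3 and 15.3 CPM in negative cells (log2 ratio 3.81 ± 0.54). Lad1, which encodes the anchoring filament protein ladinin, was at 83.0, 61.6, 61.2 and 61.4 CPM in positive cells and had no UMI in the negative cells of these 4 mice. Set against a floor of 3 counts over the negative cells of the 4 mice, it was at least 6.17-fold higher in positive cells. Of 13 glycolysis genes, 2 rose and none fell (median 0.57): Pgam1 (log2 ratio 1.27, lost without PBS 9 at an edgeR adjusted p of 0.0657) and Gapdh (0.55, lost without PBS 8 at 0.194).

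The genes that were lower in Pdcd1-positive cells, and so higher in Pdcd1-negative ones, began with the naive and central memory list, where 5 of 6 measured genes fell, none rose and the median was -2.72. Klf2 (chr8:72319033-72321656) lay at 83.0, 34.8, 57.6 and 179.6 CPM in positive and 1324, 465, 693 and 397 CPM in negative cells, without overlap (log2 ratio -3.10 ± 0.38, edgeR adjusted p = 0.00015). Tcf7 (chr11:52252371-52283014) lay at 45.3, 34.8, 28.8 and 61.4 CPM in positive and 399.8, 152, 255 and 458 CPM in negative cells, also without overlap (log2 ratio -2.87 ± 0.29, edgeR adjusted p = 2.5e-05). Lef1, a partner factor of TCF-1, lay at 30.2, 5.36, 10.8 and 47.3 CPM in positive and 425, 253, 141 and 61.1 in negative cells (log2 ratio -3.23 ± 0.53). All 3 genes encode factors of resting or stem-like cells, and each was higher in the Pdcd1-negative side of every tested mouse. Il7r lay at 35.2, 24.1, 14.4 and 54.3 CPM in positive cells and 499.7, 60.7, 99.0 and 198 in negative ones (log2 ratio -2.58 ± 0.42, edgeR adjusted p = 0.0018). Ccr7, the receptor that guides T cells to lymph nodes, fell (log2 ratio -1.18, edgeR adjusted p = 0.048), but passed in no fit that left out 1 mouse (0.196 without LR 1).

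The progenitor list had 3 of 4 measured genes lower and none higher (median -2.47): Tcf7 and Il7r, which the naive list also holds, and Slamf6. Slamf6, a surface marker of progenitor cells, had a log2 ratio of -2.36 and was lost without LR 3 (edgeR adjusted p = 0.215). Ly6c2, a surface protein of memory and effector cells in blood, lay at 156, 525, 101 and 312 CPM in positive and 775, 2376, 2377 and 580.0 CPM in negative cells (log2 ratio -2.49 ± 0.38, edgeR adjusted p = 0.0012). Itgb7, an integrin chain used in homing to the gut, lay at 45.3, 37.5, 32.4 and 63.8 CPM in positive and 199.9, 212, 212 and 519 CPM in negative cells (log2 ratio -2.69 ± 0.29, edgeR adjusted p = 3.7e-05). Neither overlapped between the sides. The homing list, which holds Itgb7, had 1 of 9 genes higher and 2 lower. The higher was Cxcr6, a chemokine receptor of tissue T cells (log2 ratio 1.24, lost without PBS 8 at an edgeR adjusted p of 0.0829), and the other lower was Cd69, an activation and tissue retention marker (-1.26, lost without PBS 8 at 0.299). Cxcr3, a chemokine receptor of effector cells, did not pass (log2 ratio -1.58, edgeR adjusted p = 0.07).

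Among cell cycle genes, of 35 S phase genes none passed in either direction (median 0.11), and of 66 G2/M genes 0 were higher and 3 lower (median -0.40), of which 2, Mki67 and Top2a, had chosen the cells. The other was Cenpf, a centromere protein (log2 ratio -1.17, lost without LR 3 at an edgeR adjusted p of 0.258). Pclaf (log2 ratio 0.11, edgeR adjusted p = 0.88) and Rrm2 (-0.12, 0.90) did not pass. The G2/M share is the percentage of a cell's S and G2/M list UMIs on the G2/M list, with Mki67 and Top2a left out. It averaged 76.9% in Pdcd1-positive and 81.9% in Pdcd1-negative cells of the 4 mice. The exact sign-flip permutation p was 0.250, where the smallest possible with 4 mice is 0.125. Averaged over the cells of all 8 mice, it was 76.49% and 80.65% in cycling cells, in the same order. In non-cycling cells it was 79.95% and 83.89%. A high share thus did not mark dividing cells, and a gap in the same direction was present in non-cycling cells. Without 14 broadly expressed G2/M genes the 4 mice gave 54.9% and 62.8% (exact sign-flip permutation p = 0.375). Heat shock and dissociation genes were lower in positive cells for 3 of 9 (Fos, Junb and Ier2; median -0.63), genes that can rise during tissue handling. Ier2 passed in no fit that left out 1 mouse, Fos was lost without LR 3 (edgeR adjusted p = 0.203) and Junb without PBS 9 (0.0784).

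Markers of other cells were few. Eomes is the 1 measured gene of the natural killer list, whose summed level ran from 77.7 to 202 CPM over the 8 mice in positive and 0 to 435 CPM in negative cells, with 2 of its 5 genes at 0. Trgv2 (log2 ratio 1.81, lost without PBS 9 at an edgeR adjusted p of 0.17), a segment of the gamma chain, is the 1 measured gene of the gamma delta list, whose sum ran from 66.6 to 163 CPM in positive and 0 to 70.7 CPM in negative cells. The myeloid list had a sum of 2.68 to 17.6 CPM in positive and 0 to 3175 CPM in negative cells, the latter set by the 1 cell of LR 3 described above. Leaving out all cells with at least 5 UMIs of myeloid or B cell markers gave 161 genes that passed, 111 of them among the 117. The part of the natural killer and gamma delta genes in the result was not tested.

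Of the named genes that passed, 18 of 40 passed in every fit that left out 1 mouse. When cells of at least 2000 UMIs were thinned to 2000 and split again by the Pdcd1 UMIs that remained, the split itself changed. Fewer cells were then positive, and 7 of 479 genes passed. Fits other than those leaving out 1 mouse lowered some of the larger values. Over all alternative fits the lowest log2 ratio was 0.29 for Tnfrsf9, 0.68 for Ccl4, 0.62 for Nrgn and 0.535 for Gzmb. Each of these genes failed to pass in at least 1 fit. For Ccl3 the lowest was 3.21, and it passed in all 14 fits that measured it.

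**Figure D3:**
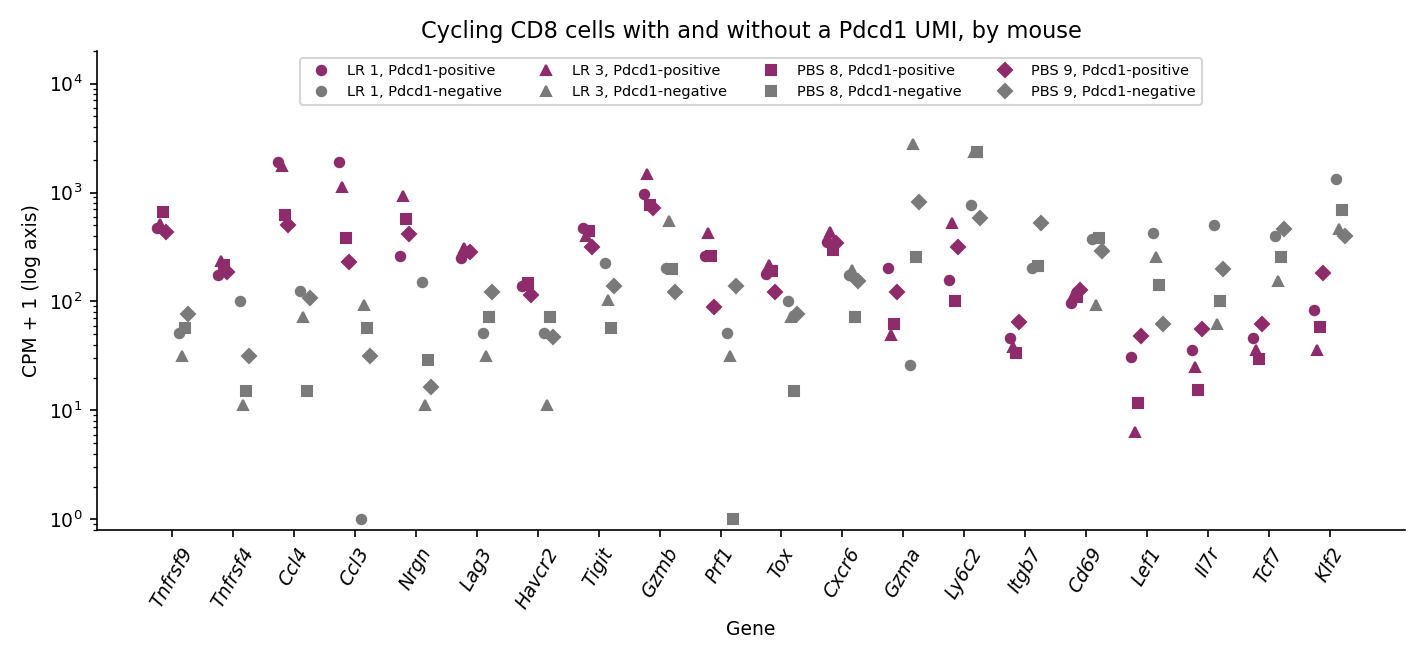
CPM plus 1 (log axis) of 20 genes in Pdcd1-positive (purple) and Pdcd1-negative (grey) cycling cells of LR 1 (circle), LR 3 (triangle), PBS 8 (square) and PBS 9 (diamond). Tnfrsf9, Ccl4 and Gzmb separate with the positive side high, and Klf2 and Tcf7 with the negative side high.

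The same Pdcd1 contrast was set against that in non-cycling CD8 cells of the 4 mice by an interaction term. It passed for 153 of 6302 genes (2.43%), with 90 positive (1.43%) and 63 negative (1.00%), and a median over all genes of 0.04. Scaling to library totals in place of TMM gave 45 positive and 174 negative genes and a median of -0.19, so the split of directions depends on the scaling. Tnfrsf9, Klf2 and Tcf7, named above for the contrast in cycling cells, were not among them: the interaction of Tnfrsf9 was -0.06 (edgeR adjusted p = 0.99), that of Klf2 -0.23 (0.85) and that of Tcf7 -0.64 (0.31). A p that misses the threshold does not show that these differences were equal.

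A negative interaction marks genes whose log2 ratio of Pdcd1-positive over negative cells was lower in cycling than in non-cycling cells. Ctla4, which encodes an inhibitory receptor, averaged 147 CPM in Pdcd1-positive and 191 in Pdcd1-negative cycling cells, and 255 and 88.2 CPM in the matching non-cycling cells (interaction -1.62 ± 0.30, SE, edgeR adjusted p = 0.0015). Ptms, which encodes the chromatin protein parathymosin, averaged 149 and 178 CPM in cycling and 181 and 31.5 CPM in non-cycling cells (interaction -2.71 ± 0.32, edgeR adjusted p = 1.4e-05). Klrk1, which encodes the activating receptor NKG2D, averaged 121 and 155 CPM in cycling and 176 and 61.8 CPM in non-cycling cells (interaction -1.71 ± 0.32). In all 3 the non-cycling cells without Pdcd1 were the low class. Slamf7, an activating receptor of effector cells, averaged 66.6, 115, 95.4 and 30.1 CPM in the same order, and Lgals3, which encodes galectin-3, 129.9, 223, 241 and 46.8 CPM. On average, Gzma was lower in positive than in negative cells among cycling cells and higher among non-cycling cells (interaction -4.36 ± 0.75, edgeR adjusted p = 0.00057). Its means were 108, 979, 98.6 and 37.6 CPM. The cycling cells of LR 1 had the opposite order, as given above. In LR 3, 1 cell holds 168 of the 533 Gzma UMIs in cycling cells, and without that mouse the interaction was -2.76. These 6 genes kept their interaction with any 1 mouse left out, and the other 16 named ones lost it at least once.

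Positive interactions included 69 of the 87 measured ribosomal protein genes and no negative ones (median 0.66), a group picked out after its values were seen. They took 22.0% of UMIs in Pdcd1-positive and 21.5% in Pdcd1-negative cycling cells, and 24.4% and 31.7% in the matching non-cycling cells. The non-cycling cells without Pdcd1 thus had the highest share of their UMIs on ribosomal protein genes. They were also the shallowest, with a median of 3454.5 UMIs, and a link between depth and this share was not tested. Gar1, which encodes a protein of RNA-modifying particles, averaged 115 and 35.5 CPM in cycling and 55.0 and 57.3 CPM in non-cycling cells (interaction 2.07 ± 0.41, edgeR adjusted p = 0.0024; 0.0619 without PBS 9). Ttc3, a ubiquitin ligase gene, averaged 66.0, 12.1, 55.4 and 60.9 CPM in the same order (2.57 ± 0.58; 0.192 without PBS 9).

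T cells that descend from 1 parent share a receptor, and the variable (V) segment of the receptor's beta chain, Trbv, is one part of it. V segments are near-identical copies that reads can be split between, and cells with the same segment need not be of 1 clone, so the values below describe segments only. The leading Trbv segment of a cycling cell matched that of a Pdcd1-positive non-cycling cell of its own mouse in 17.5, 23.4, 20.4 and 15.8% of pairs (LR 1 to 4) and in 25.9, 7.18, 13.0 and 20.8% (PBS 6 to 9). It matched that of a Pdcd1-negative non-cycling cell in 4.65, 8.46, 6.06 and 8.49%, and in 5.50 to 8.18% in the PBS mice. The match was higher with Pdcd1-positive cells in 8 of 8 mice, by a mean of 11.2 points (SD 5.41), and PBS 7, with 16 cycling cells, had the smallest gap. An exact sign-flip permutation test gave p = 0.0078, the smallest it can give with 8 mice, and the value adjusted over 7 tests was 0.0547. With Pdcd1-positive non-cycling cells of other mice the match was 4.32 to 11.7%. Most cycling cells were Pdcd1-positive, so these values mainly describe that side. The Pdcd1-negative cycling cells alone, 2 to 9 per mouse with a leading Trbv, matched Pdcd1-positive non-cycling cells in 8.86% of pairs on average. With Pdcd1-negative non-cycling cells they matched in 6.62%. In LR 1, PBS 6 and PBS 7 their match was lower with the positive cells, and in the rest it was higher.

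The segments differed between mice. Trbv2 led in LR 1, with 18 of 36 cycling cells that had a Trbv UMI, and made up 30.7% of its Pdcd1-positive and 3.19% of its Pdcd1-negative non-cycling cells. Trbv19 led in LR 2 (17 of 44), LR 4 (13 of 54) and PBS 6 (14 of 34), and Trbv16 in LR 3 (11 of 31) and PBS 9 (17 of 40). In PBS 9, Trbv16 made up 40.9% of Pdcd1-positive and 6.79% of Pdcd1-negative non-cycling cells. Cells that matched in both the alpha and the beta segment were scarcer: with Pdcd1-positive cells the share was 14.9, 5.81, 6.88 and 9.92% (LR) and 19.0, 2.78, 5.63 and 0.584% (PBS), and with Pdcd1-negative cells it ran from 0.0859 to 2.09%. In LR 1 the pair Trav4-4-dv10 with Trbv2 was held by 14 of 31 cycling cells with both segments, 37 of 120 Pdcd1-positive and 8 of 322 Pdcd1-negative non-cycling cells. In LR 3 the most frequent pair was held by 4 of 21 cycling cells and by 0 of 36 Pdcd1-positive non-cycling cells. In PBS 9 no single pair led, since 2 pairs were tied at 2 of 20 cycling cells each. The first of them by name was in 0 of 77 Pdcd1-positive and 4 of 430 Pdcd1-negative non-cycling cells. These counts are too small to describe those mice. Pairs of cycling cells of the same mouse shared a Trbv segment in 20.2% of cases in LR and 20.3% in PBS mice on average (exact two-sided permutation p = 0.943).

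**Figure D4:**
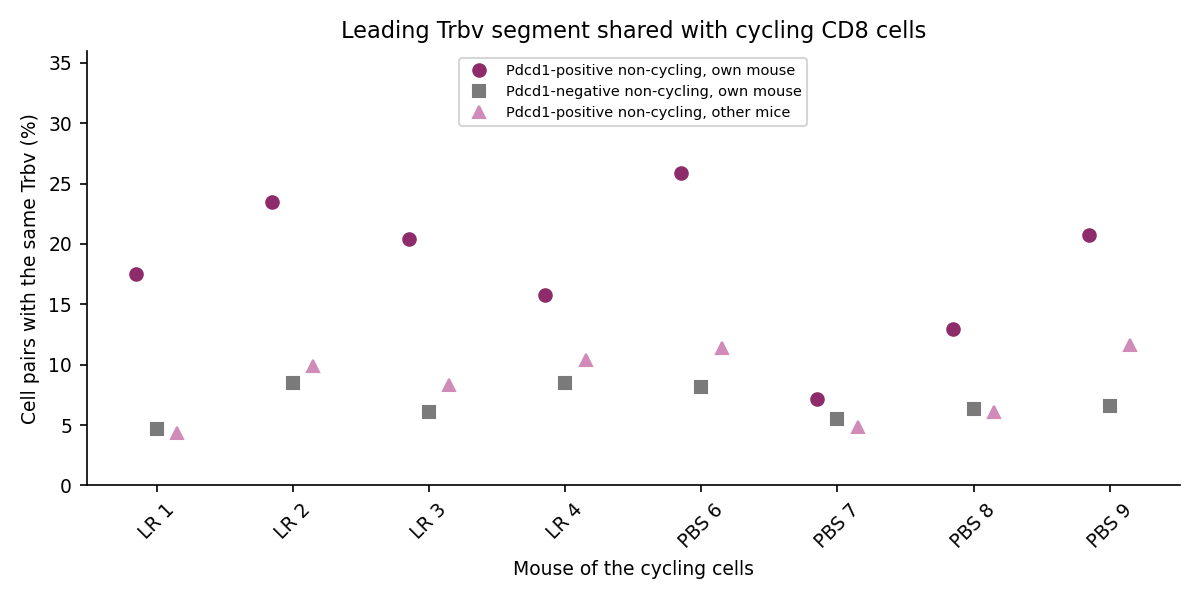
Percentage of cell pairs with the same leading Trbv segment, for the cycling cells of each mouse paired with Pdcd1-positive non-cycling cells of that mouse, with its Pdcd1-negative non-cycling cells, and with Pdcd1-positive cells of other mice. In all 8 mice the first is above the second.

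Between LR and PBS mice, no gene of the cycling cells passed edgeR's quasi-likelihood test at an adjusted p of 0.05 (0 of 5788, 0.00%). At an unadjusted p under 0.05 there were 242, a smaller share of the genes than the threshold itself, and DESeq2 gave 0 adjusted and 104 unadjusted. The mice of the conditions did not overlap for 146 genes (2.52%), 69 of them higher (1.19%) and 77 lower (1.33%) in LR. Of all ways to order 4 mice against 4, a share of 0.029 has no overlap, so these genes are no more than that. The G2/M share averaged 77.3 ± 3.35% over the LR mice and 77.5 ± 3.34% over the PBS mice (SD, n = 4), with an exact two-sided permutation p of 0.943. Restricting to Pdcd1-positive cycling cells gave 0 of 5312, and 239 passed before adjustment, again a smaller share than the threshold of 0.05.

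The 5 genes with the smallest unadjusted p, none of which passed, were Lars2, Serpine2, Gadd45g, Upf3a and Atg16l2. Gadd45g, a stress-induced inhibitor of growth, lay at 20.6, 22.4, 16.9 and 16.8 CPM in LR and 36.7, 38.3, 37.3 and 43.0 CPM in PBS mice, without overlap (log2 ratio -1.01, edgeR adjusted p = 1.0). Atg16l2, an autophagy gene, lay at 45.7, 46.4, 44.5 and 49.0 CPM in LR and 22.7, 27.9, 31.6 and 22.5 CPM in PBS mice (log2 ratio 0.87), also without overlap. Crem, a factor of the cyclic AMP pathway, lay at 48.0, 36.8, 27.5 and 46.5 CPM in LR and 17.5, 17.4, 25.8 and 22.5 CPM in PBS mice (log2 ratio 0.96 ± 0.28, SE), and did not pass either. Gzmb lay at 903, 689, 1271 and 801 CPM in LR and 751, 558, 646 and 638 CPM in PBS mice, with LR 2 inside the PBS range (log2 ratio 0.50 ± 0.16, edgeR adjusted p = 1.0). Ifng lay at 1801, 101, 165 and 199 CPM in LR and 199, 129, 158 and 121 CPM in PBS mice, so LR 1 alone stood apart. Its log2 ratio of 1.90 was 0.02 without the 1 cell of LR 1 that held most of it, and that of Ccl3 went from 1.54 to 0.66.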

How the data were processed

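The data are 1 droplet library of gene UMIs and hashtag UMIs from 8 mice. Per the labels' protocols it was made with the 10x 5′ v2 kit, and per the submitters' processing notes the authors used Cell Ranger 4.0.0 and GRCm38. The deposited values are raw whole-number counts of UMIs per gene and barcode, with no normalization. Hashtag names gave each barcode's mouse and treatment, and 3761 barcodes whose leading hashtag held under 80% were left out. A hashtag named for LR mouse 5 leads no kept barcode. The counts of a class of cells were added up within each mouse for edgeR 4.0.16 (R 4.3.3, TMM scaling, filterByExpr, quasi-likelihood, Benjamini-Hochberg over all genes tested), with mouse as a block in the Pdcd1 contrasts because both sides come from the same animals. Shares were tested by exact two-sided permutation (scipy 1.17.1). Of 7 such tests, 1, of the states the cells resembled, is not reported here. DESeq2 1.42.0 was an alternative, and Scrublet (scanpy 1.11.5) marked likely doublets, which stayed in. Gene positions are those of GENCODE M21. Scripts were tested on simulated counts, drawn with the same spread for every gene and no differences between mice. The shares recovered there do not carry over to the real counts, where the spread differs by gene and mouse. Of true log2 changes of 1, the LR fit recovered 83.7%, the Pdcd1 fit 64.3% and the interaction fit 14.0%. Of changes of 2 they recovered 100, 100 and 54.3%, so the interaction fit missed many true differences. False calls numbered 15, 2 and 2. The members, gene lists and tests were chosen with earlier results of these data known. Named genes were a set list plus, per comparison, the largest changes past the threshold within each list (up to 3), and the 5 highest and 5 lowest genes that 5% of cells or more held and with the same direction in every mouse.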

Additional observations from a re-analysis of the deposited data

Results flagged for a closer look

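In 3 of 80 groups of 4 mice examined, 1 mouse lay far outside the other 3, and chance flags about 1 in 20 groups. Ifng lay at 1801 CPM in LR 1 and between 100.8 and 198.8 CPM in the other LR mice. Il7r lay at 77.73 CPM in LR 1 against 23.23 to 31.77 CPM, and Ccr7 at 203.7 CPM in PBS 8 against 33.25 to 53.2 CPM in the other PBS mice.

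For 22 named genes the Pdcd1 difference in cycling cells differed from that in non-cycling cells by the interaction test, given here as log2 values. Negative values were found for the effector genes Gzma (-4.36), Ly6c2 (-1.60), Nkg7 (-0.66), Klrk1 (-1.71) and Slamf7 (-2.52), and for the surface proteins Ctla4 (-1.62), Entpd1 (-2.33), Cd44 (-1.59) and Itgb1 (-1.15). Among cell cycle genes they were found for Cenpe (-2.10), Ccnb2 (-1.97) and Cdkn1a (-2.45), and elsewhere for Ptms (-2.71), Sytl2 (-2.65), Lgals3 (-2.65) and Anxa4 (-2.64). Positive values were found for Jund (0.82), Ttc3 (2.57), Naa15 (2.07), Gar1 (2.07), Ccny (1.91) and Mrps34 (1.502). Without LR 3 the value of Cdkn1a was -0.93 (edgeR adjusted p = 0.784) and that of Entpd1 -1.22 (0.720), and without PBS 9 that of Ccnb2 was -0.76 (0.731).

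The hashtag named for LR mouse 5, which belongs to no mouse of the design, held 5699 of 20359282 hashtag UMIs and led no kept barcode.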

How the results depend on the processing

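Depth and cell number set most limits: Pdcd1-negative cycling cells number 46, only 4 mice enter the Pdcd1 contrasts, and a missed Pdcd1 UMI puts a cell on the negative side. LR against PBS gave 0 genes in every fit that left out 1 mouse, 79 without the filter on low counts and 8 with a hashtag share of at least 95%, where LR 2 is the only LR mouse left. Pdcd1-positive against negative gave 117 genes, 60 to 86 with 1 mouse left out (60 without PBS 8), 244 without the filter, 74 with DESeq2 (73 shared), 24 at a hashtag share of 95%, 13 with at least 2 UMIs of Mki67 and of Top2a, and 7 with thinned cells. The interaction gave 153 genes, 83 to 171 with 1 mouse left out (83 without PBS 9), 240 without the filter, 82 at 95%, 54 with at least 2 UMIs and 287 with all 8 mice. Without mouse as a block, the Pdcd1 contrast gave 129 genes and the interaction 67. No paired analysis was possible because LR and PBS mice share no numbers, so LR against PBS has no block. With thinned cells the LR difference in Pdcd1 share was -2.12, and the log2 values were 0.072 for Top2a in the Pdcd1 contrast (-0.82 with all UMIs) and -1.56 for the Ccl4 interaction (0.37). That of the Lgals3 interaction was 0.35 at 95% (-2.65 at 80%). The LR difference in G2/M share ran from -1.76 to 0.90 with 1 mouse left out, and was 0.0078 without cells with myeloid or B cell UMIs and 1.20 with a narrower list. The Trbv match difference was 9.95 at 95% (exact permutation p = 0.125, the smallest for the 4 mice left). With 1 mouse left out, the LR difference in matching among cycling cells ran from -2.36 to 2.21. Causes were not tested.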

Other observations

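Regulatory T cells were taken as barcodes with Foxp3 UMIs and none of Cd8a or Cd8b1. Of these 517 barcodes, 77 (14.9%) met the same Mki67 and Top2a criterion, beside 4.81% of CD8 cells. The cycling share by mouse was 26.7, 19.1, 22.9 and 16.5% in LR 1 to 4 and 23.4, 17.0, 4.76 and 2.38% in PBS 6 to 9. PBS 8 (5 of 105) and PBS 9 (1 of 42) were low. The counts were small, as in LR 1 with 4 of 15.

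Single cells held much of some effector transcripts among the cycling cells. Apart from the Ifng-rich cell of LR 1, 1 cell of LR 3 held 334 of the 589 Gzmc UMIs, where Gzmc encodes granzyme C. The Ifng-rich cell held 4485 genes, a hashtag share of 91.1% and no doublet mark, with 34 Prf1 and 22 Tnfrsf9 UMIs beside 4 Gzmb UMIs. Without it, Ifng in LR 1 was 149.8 CPM.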
